A study of Mus musculus with 6 samples.

Results

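The genes described here build the antigen receptor repertoire of lymphocytes by V(D)J recombination, the cutting and rejoining of receptor gene segments. They were 10 named genes, taken as every probe set that the platform annotation assigns to exactly 1 of their symbols. Of the 10, 9 had such a probe set, giving 14 probe sets among 45037 tested and 9 genes among 18193 with a probe set of 1 symbol. Dclre1c, the gene of the hairpin-opening nuclease Artemis, had none under that rule and was not analysed here. The lymphoid-only set held 5 probe sets of 3 genes (Dntt, Rag1 and Rag2), and the end-joining set held 9 probe sets of 6 genes (Xrcc4, Xrcc5, Xrcc6, Prkdc, Lig4 and Nhej1).

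In V(D)J recombination the RAG1 and RAG2 proteins cut DNA beside receptor gene segments, and the broken ends are joined by the non-homologous end-joining machinery that every cell uses for double-strand breaks. Terminal transferase, the product of Dntt, adds untemplated bases at the joints. In bone marrow, Dntt and the Rag genes are first switched on in multipotent progenitors that are turning towards the lymphoid lineages, whereas the end-joining genes are active in most tissues.

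The arrays measured total RNA of bone marrow cells sorted as lineage-negative and positive for c-Kit and Sca1, the gate of haematopoietic stem and progenitor cells (HSPCs), from mice of a B6/129 background. The HSPC_Med12 KO group (3 arrays) came from Med12Flox;MxCre mice, in which Cre under the interferon-responsive Mx1 promoter deletes Med12, a subunit gene of the Mediator kinase module, in blood and other tissues that respond to interferon. The HSPC_control group (3 arrays) came from control mice whose genotype and Cre status the labels do not give, and mice of both groups had received pI:pC, the inducer of interferon, 4 days before the sort. Age, sex and any pooling of animals are not given in the labels, and nothing there says that the arrays of a group came from separate animals, so a p-value here reflects the spread among arrays, which may be technical.

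The median signal per array was 16.5 to 21.3 in knockouts and 26.7 to 26.9 in controls, and signals under 16 made up 45.5% to 49.5% of probe sets in knockouts and 41.6% to 42.3% in controls. The 3′ to 5′ signal ratios of Gapdh were 1.39 to 1.77 in knockouts and 1.38 to 1.52 in controls. Med12 itself had signals of 89.1, 100.4 and 86.4 in knockouts, against 278.6, 837.4 and 441.6 in controls, and the difference did not pass over all probe sets (limma adjusted p = 0.0796). Whether its only probe set lies inside the floxed stretch is not given in the sources used here. Of 7 marker genes of the sorted cells 5 were measured: Kit, Cd34, Cd48 and Ptprc had knockout signals below all control signals, Gata2 had knockout signals above them, and none passed. Of all probe sets 13.3% lay entirely lower and 7.61% entirely higher in knockouts. The summed signal of the 5 measured markers was 4518 to 5329 in knockouts and 6960 to 10016 in controls.

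The promoters of the lymphoid-only and end-joining genes differed in their content of CpG dinucleotides, as the following windows show. Each runs from 250 bases before to 50 bases after the gene's start in RefSeq (assembly GRCm38.p6), 5′ to 3′ on the gene's strand, with every CpG dinucleotide in capitals. Xrcc4 is shown as the end-joining gene set against the 3 lymphoid-only genes.
Dntt promoter (chr19:41029025-41029324, plus strand): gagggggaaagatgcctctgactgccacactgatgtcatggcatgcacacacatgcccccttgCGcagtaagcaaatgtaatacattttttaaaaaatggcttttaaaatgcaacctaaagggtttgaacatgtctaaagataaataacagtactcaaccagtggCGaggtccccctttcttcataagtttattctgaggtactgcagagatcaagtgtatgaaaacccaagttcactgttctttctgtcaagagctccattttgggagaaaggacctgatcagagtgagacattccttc
Rag1 promoter (chr2:101649483-101649782, minus strand): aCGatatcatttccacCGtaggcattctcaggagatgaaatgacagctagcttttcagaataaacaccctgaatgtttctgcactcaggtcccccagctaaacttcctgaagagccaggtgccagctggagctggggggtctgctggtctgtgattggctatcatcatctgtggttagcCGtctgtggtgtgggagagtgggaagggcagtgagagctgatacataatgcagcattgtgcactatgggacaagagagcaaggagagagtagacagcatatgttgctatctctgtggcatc
Rag2 promoter (chr2:101624462-101624761, plus strand): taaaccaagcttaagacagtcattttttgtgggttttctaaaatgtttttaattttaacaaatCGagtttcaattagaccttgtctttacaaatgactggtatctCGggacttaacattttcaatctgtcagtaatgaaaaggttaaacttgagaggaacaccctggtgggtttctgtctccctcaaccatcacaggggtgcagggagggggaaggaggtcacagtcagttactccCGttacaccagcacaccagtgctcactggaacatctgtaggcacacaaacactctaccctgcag
Xrcc4 promoter (chr13:90089559-90089858, minus strand): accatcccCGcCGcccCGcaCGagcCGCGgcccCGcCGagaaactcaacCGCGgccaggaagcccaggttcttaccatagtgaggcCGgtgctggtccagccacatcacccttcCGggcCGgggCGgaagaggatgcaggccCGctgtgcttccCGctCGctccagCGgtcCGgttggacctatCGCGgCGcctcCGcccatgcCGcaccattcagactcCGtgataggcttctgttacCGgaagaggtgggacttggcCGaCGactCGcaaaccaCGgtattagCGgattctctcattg

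The Dntt window held 2 CpG dinucleotides, the Rag1 window 3 and the Rag2 window 3, against 31 in the Xrcc4 window, the most of any member window. The other end-joining windows held 9 (Xrcc5), 10 (Nhej1), 12 (Dclre1c), 30 (Xrcc6), and 29 and 30 (Lig4). The ratio of observed to expected CpG was 0.149 for Dntt, 0.165 for Rag1 and 0.216 for Rag2. Among the end-joining genes it was 1.04 for Xrcc6, 0.970 for Xrcc4, 0.527 for Xrcc5 and 0.523 for Nhej1, and the 2 windows of Lig4 had 0.857 and 0.938. Dclre1c, which had no probe set, was at 0.505. The windows of Xrcc6 and of 1 of the Lig4 entries lie at a start inside the span that the RefSeq gene table of the same assembly gives for the gene. All windows of the end-joining genes thus lay above the median of 0.384 over 32851 RefSeq promoters, and those of Dntt, Rag1 and Rag2 lay below it. Among these promoters, 20.7% had a lower ratio than Dntt, 23.3% a lower one than Rag1 and 31.2% a lower one than Rag2. The table matched 9 of the 10 genes, and Prkdc was not among them.

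**Figure D1:**
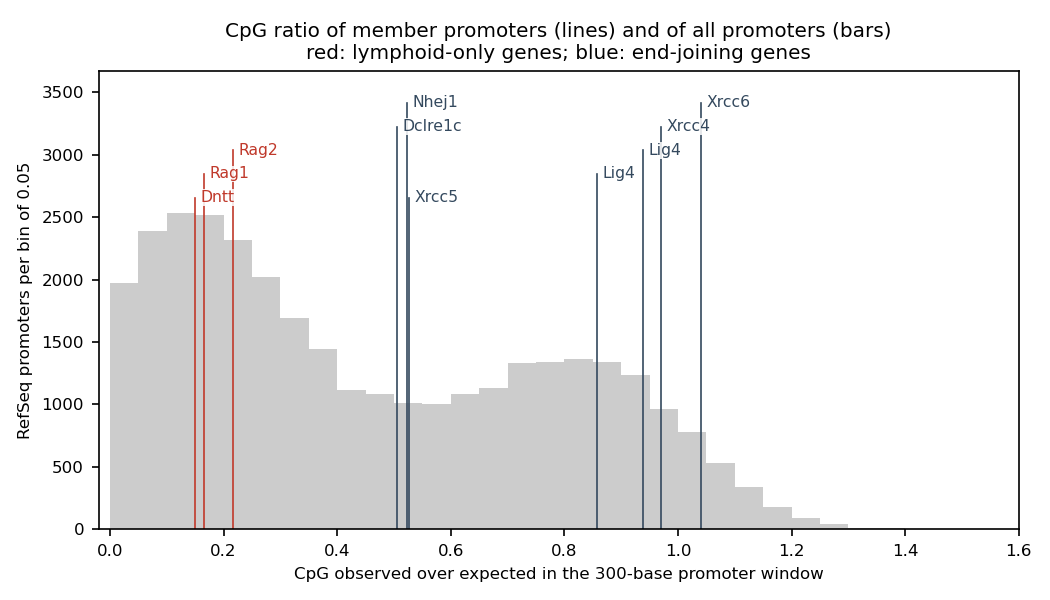
The x axis is the ratio of observed to expected CpG in the promoter window and the y axis is the number of RefSeq promoters per bin (bars). Lines mark the member genes: Dntt, Rag1 and Rag2 (red) stand at 0.149 to 0.216 and the end-joining genes (blue) at 0.505 to 1.04.

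Short motifs were searched on both strands of the same windows. The GC box GGGCGG occurred in no window of Dntt, Rag1 or Rag2, and was found 3 times for Xrcc4, 3 times for Xrcc6, 2 times for Nhej1, 2 times in 1 of the Lig4 windows and 1 time for Dclre1c, but not for Xrcc5. It is held by 35.7% of all promoters. The E-box CAGGTG occurred 1 time, in Rag1 (20.2% of all promoters). The letters TGGGAA, a core bound by Ikaros factors, occurred 1 time in Rag1 and 1 time in 1 Lig4 window (25.6% of all promoters). Neither TATAAA (13.6%) nor the forkhead motif GTAAACA (3.65%) was found in any member window. The motifs do not overlap one another in their letters, and a match is a description of the sequence only.

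All 5 lymphoid-only probe sets had knockout signals below every control signal, and the 4 of Dntt and Rag2 fell in limma's test at an adjusted p under 0.05. Over the whole array 0.542% of probe sets fell by that rule, and 13.3% had knockout signals entirely below the control signals. Of the 343 probe sets called in either direction (0.762%), 28.9% were higher in knockouts. Centring each array on its median gave 693 calls, of which 62.2% were higher in knockouts. In these bulk samples, fewer cells of a type and less RNA per cell cannot be told apart.

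Dntt, which encodes terminal transferase, was read by 3 probe sets. The set 1420166_at had signals of 2.1, 16.3 and 6.1 in knockouts, against 1697.6, 1944.4 and 1963.7 in controls. The set 1449757_x_at, whose suffix marks probes that can match other transcripts, had 0.5, 13.1 and 3.6 in knockouts and 1824.6, 2513.9 and 2544.5 in controls. The Dntt set 1450545_a_at had 6.4, 34.4 and 14.6 in knockouts and 1259, 1699.4 and 1746.4 in controls. Every knockout array was low and every control array was high on all 3 sets, with no overlap. Of the 9 knockout values of Dntt, 8 lay below the median signal of their own array, and none of the 9 control values did.

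The knockout mean of Dntt was 0.437%, 0.250% and 1.18% of the control mean on the 3 probe sets. On the log2(signal + 16) scale, which understates the change of dim probe sets, 1420166_at fell by 6.32 (SE 0.23, 95% interval -6.90 to -5.75, limma adjusted p = 0.00506). By the same measure 1449757_x_at was at -6.76 (interval -7.39 to -6.12, adjusted p = 0.00506) and 1450545_a_at at -5.59 (interval -6.38 to -4.80, adjusted p = 0.0163). By unadjusted p these Dntt probe sets ranked 1, 2 and 7 among the 45037. All 3 Dntt calls were lost without knockout replicate 1 or 3 (adjusted p = 0.0544 to 0.0967, log2 differences from -6.70 to -5.32), and that of 1450545_a_at also without control replicate 1 (0.0744), 2 (0.0609) or 3 (0.0672).

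Rag2, the regulatory partner of the RAG recombinase, had signals of 8, 10.4 and 6.8 in knockouts, against 82.7, 132.8 and 148.1 in controls. The means were 8.40 ± 1.83 in knockouts and 121 ± 34.2 in controls (SD, n = 3 each), so the knockout mean was 6.93% of the control mean. Rag2 fell by 2.46 on the log2 scale (SE 0.22, interval -3.00 to -1.93, limma adjusted p = 0.0293) and ranked 40 by unadjusted p. With any 1 of the 6 arrays left out the Rag2 difference stayed between -2.68 and -2.31, and its adjusted p rose to between 0.0505 and 0.110.

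Rag1, which carries the DNA-cutting site of the recombinase, had signals of 0.6, 0.3 and 1.5 in knockouts, against 14.4, 79.2 and 18.6 in controls. The groups did not overlap, but control replicate 2 stood above the other two controls, and 2 of the 3 control values lay below the median signal of their array. The log2 difference of Rag1 was -1.47 (SE 0.44, interval -2.55 to -0.39) and did not pass (limma adjusted p = 0.199, unadjusted p = 0.0159). Its size depended on the number added before the log: it was -4.06 with 1, -2.77 with 4 and -0.59 with 64 in place of 16, and none of these passed.

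Within groups, the lymphoid-only probe sets shared some ranks of the arrays but not a full order. Control replicate 1 was the lowest control on all 5, of which 3 read Dntt, and also on 7 of the 9 end-joining probe sets. Knockout replicate 2 was the highest knockout on 4 of the 5, the 3 of Dntt and that of Rag2, and the lowest on Rag1. These spreads were small beside the gap between groups for Dntt, where the lowest control signal was 1259 and the highest knockout signal 34.4 on the same probe set.

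**Figure D2:**
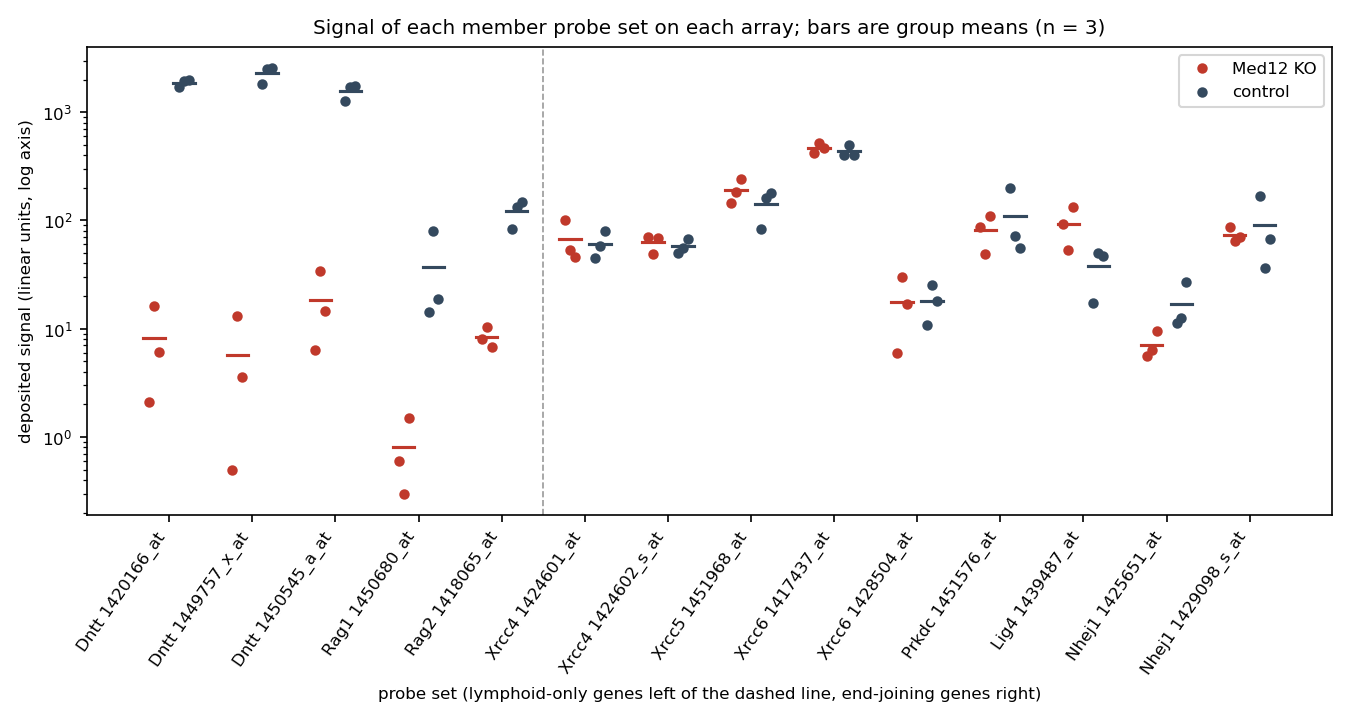
The y axis is the deposited signal (log axis) and each position on the x axis is a probe set, with the 3 Med12 KO arrays (red) left of the 3 control arrays (blue) and bars at the group means. The groups are apart for Dntt, Rag1 and Rag2 (left of the dashed line) and overlap on 7 of the 9 end-joining probe sets.

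None of the 9 end-joining probe sets passed limma's test in either direction, where 0.762% of all probe sets did, and 1 (that of Lig4) had an unadjusted p under 0.05. On 2 of the 9 the groups did not overlap, against 20.9% of all probe sets, 1 lower (13.3%) and 1 higher (7.61%) in knockouts. Their median log2 difference was 0.07, with a range of -0.48 to 1.01, and the median over all probe sets was -0.07. For the 5 lymphoid-only probe sets the median was -5.59 and the range -6.76 to -1.47. The difference between the 2 sets was not tested, because the members were chosen with earlier results of these data known.

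Xrcc6 and Xrcc5 encode Ku70 and Ku80, the ring that first binds a broken end. The Xrcc6 probe set 1417437_at had signals of 421.3, 516.9 and 469 in knockouts and 402.1, 495.5 and 405.3 in controls. Its log2 difference of 0.11 had a 95% interval of -0.25 to 0.47 (limma adjusted p = 0.791), the narrowest of the end-joining probe sets. The second Xrcc6 set, 1428504_at, was dim, with 5.9 to 30.1 in knockouts and 10.9 to 25.3 in controls, and its log2 difference was -0.06 (interval -0.82 to 0.71). Xrcc5 had 145, 183.7 and 241.3 in knockouts and 82.9, 160.6 and 178.6 in controls. The Xrcc5 groups overlapped, and the log2 difference was 0.43 (interval -0.34 to 1.20, adjusted p = 0.586).

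Prkdc encodes the catalytic subunit of DNA-PK, the kinase that Ku brings to the break and that is lost in scid mice. Its signals were 87.6, 49 and 109 in knockouts and 200.9, 71.6 and 55.1 in controls. Control replicate 1 stood apart from the other controls, and the log2 difference of -0.23 (interval -1.40 to 0.94, limma adjusted p = 0.879) became 0.26 without it.

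Lig4, the ligase that seals the joint, was the end-joining gene with the largest difference. It had signals of 93.6, 53 and 133.2 in knockouts, against 17.2, 49.6 and 47.2 in controls, so that every knockout array lay above every control array. The means were 93.3 ± 40.1 in knockouts and 38.0 ± 18.1 in controls (SD, n = 3 each). The log2 difference of 1.01 (SE 0.39, interval 0.06 to 1.96) did not pass over all probe sets (limma adjusted p = 0.291, unadjusted p = 0.0401). It kept its sign in all 18 alternatives, from 0.61 to 1.32, and passed in none of them.

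Xrcc4, the scaffold partner of the ligase, had signals of 100.7, 53.5 and 46.1 in knockouts and 45.1, 58.3 and 79.1 in controls on probe set 1424601_at. On 1424602_s_at it had 70.9, 49.1 and 68.1 in knockouts and 50.2, 55.4 and 66.7 in controls. Both sets overlapped between groups, with log2 differences of 0.07 (interval -0.65 to 0.80) and 0.09 (interval -0.32 to 0.51).

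Nhej1 encodes XLF, a filament partner of XRCC4. Its probe set 1429098_s_at had signals of 86.4, 65.1 and 70.2 in knockouts and 168.9, 36.1 and 67.5 in controls, with a log2 difference of -0.06 (interval -1.18 to 1.06). The dim set 1425651_at had 5.6, 6.3 and 9.5 in knockouts and 11.3, 12.5 and 27.2 in controls. There the groups did not overlap, and the log2 difference of -0.48 (SE 0.21, limma adjusted p = 0.348) did not pass.

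**Figure D3:**
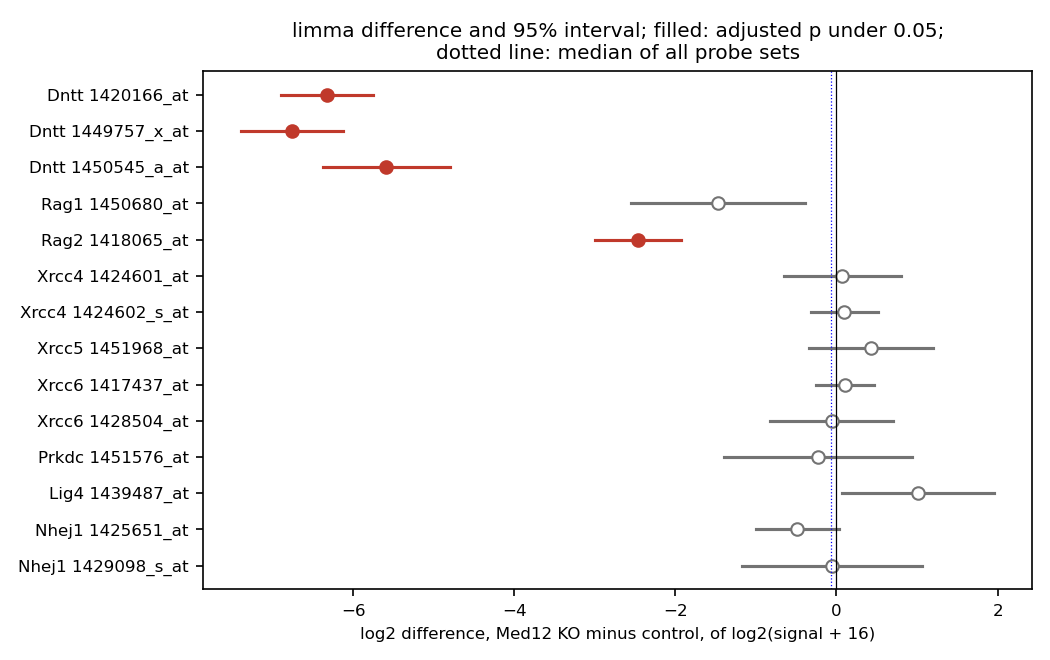
The x axis is the log2 difference, Med12 KO minus control, and each row is a probe set with its 95% interval. Filled points (Dntt at -6.32, -6.76 and -5.59, Rag2 at -2.46) have an adjusted p under 0.05, and the intervals of all end-joining probe sets but that of Lig4 include 0.

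The median difference of all genes was 0.22 with each array centred on its median, and -0.05 without centring. Relative to that median, Dntt was at -6.27, -6.70 and -5.54, Rag2 at -2.41 and Rag1 at -1.41. Lig4 was at 1.07 on the same relative scale, Xrcc5 at 0.48 and the Xrcc6 probe set 1417437_at at 0.16. Unshifted, the signs of the Xrcc6 set 1428504_at (0.21), of Prkdc (0.046) and of the Nhej1 set 1429098_s_at (0.22) turned positive after that centring.

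The protein-coding genes beside Dntt and the Rag pair on the chromosome were compared next, by their order in the RefSeq gene table. Genes named only by Gm and a number were passed over. Rag1 and Rag2 are neighbours, and the nearest of the genes kept on either side of the pair were Iftap and Traf6, a signalling ubiquitin ligase. Iftap had signals of 391.8, 489.6 and 305.5 in knockouts and 454.1, 585.2 and 434.4 in controls, a log2 difference of -0.31. Traf6 had 164.3, 121 and 230.7 in knockouts and 174.2, 121.8 and 194.2 in controls, a log2 difference of 0.05. Both overlapped between groups, as did Lrrc4c and Prr5l (-0.09) further out. Beside Dntt lie Blnk, the B cell linker adaptor, and Opalin. Blnk had 3.1, 10.5 and 5.7 in knockouts, below its control signals of 17.9, 36.7 and 19.1, and its log2 difference of -0.84 did not pass (limma adjusted p = 0.168). Opalin (0.08), Tll2 (-0.03) and Zfp518a (-0.43) overlapped between groups.

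The genes whose pattern over the 6 arrays came nearest to each lymphoid-only gene were found by the root mean square difference of log2 values centred per gene. Nearest to Dntt (probe set 1450545_a_at) were the neutrophil elastase gene Elane (0.567), the chemokine gene Ccl3 (0.719), the eosinophil granule gene Prg2 (0.724) and the monocyte and dendritic cell factor gene Irf8 (0.912). Nearest to Rag2 were Tox2, an HMG-box factor gene (0.151), Mtus1 (0.222), the GTPase gene Gimap6 (0.227) and Tmem86a (0.232). Tox2 had signals of 3.8, 4.1 and 1.9 in knockouts, against 82, 101.5 and 100.1 in controls. Nearest to Rag1 were Gsap (0.169), the lymphotoxin beta gene Ltb (0.206), Spry2 (0.239) and Nsg2 (0.244). Control replicate 2 was the highest control for all 4 of these, as it was for Rag1. That follows from choosing them by likeness to Rag1 on these arrays. This likeness is a description over 6 arrays in 2 groups.

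Among the other genes of end joining, 13 of 15 listed were measured, and 0 passed limma's test (0.989% of all 18193 genes did), 4 with negative and 9 with positive log2 differences. Their median was 0.11, beside -0.05 over all genes, and 2 were negative with arrays centred on their medians. Polm, the end-joining polymerase most closely related to Dntt, had signals of 32.3, 34.1 and 66.3 in knockouts, against 10.7, 1.5 and 3.1 in controls. These groups did not overlap, and the log2 difference of 1.49 missed the threshold (limma adjusted p = 0.0864). It passed with arrays centred on their medians (log2 1.77, adjusted p = 0.0493) and with the dimmest 25% of probe sets left out (adjusted p = 0.0446). It passed in no other alternative that tested it, with adjusted p from 0.0720 (trended, robust prior in limma) to 0.249 (plain equal-variance test). Leaving out the dimmer 50% of probe sets removed Polm, so that setting did not test it. Tdp1, which clears blocked DNA ends, was at 1.02 (adjusted p = 0.0766), Wrn at 0.40 and Aplf at 0.41. The other family X polymerases, Polb (0.23) and Poll (0.21), did not pass. Paxx, which stabilises Ku at ends, was at -0.47 (adjusted p = 0.317).

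Genes that sense and signal breaks (13 measured of 13) had a median log2 difference of 0.18, or 0.11 after quantile normalization. Of these 0 passed limma's test, where 0.989% of all genes did, so 0 calls in lists this small do not set them apart. The checkpoint kinase gene Chek1 was at 0.54, Chek2 at 0.22, Nbn at 0.48, H2ax at 0.18 and Atm, the kinase that restrains RAG cutting after a break, at -0.17. Alternative end joining (6 of 7 measured) had a median of 0.29 and 0 calls, with Fen1 at 0.68, Lig1 at 0.39, Xrcc1 at 0.60 and Parp1 at 0.19. Homologous recombination (14 of 16 measured) had a median of 0.17 and 0 calls. Its helicase gene Blm had 427.5, 323.4 and 566.1 in knockouts, against 161.7, 113.6 and 136.7 in controls (log2 1.55, adjusted p = 0.0615). Exo1 was at 0.88, Brca2 at 0.82 and Dna2 at 0.45, none of which passed. Hmgb2, the HMG-box cofactor of the RAG recombinase, had a log2 difference of 0.13 with overlapping groups.

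Of 19 transcription factor genes reported to act on the Rag or Dntt genes, all were measured, 17 had negative log2 differences, and 1 fell (0.638% of all genes did). The one was Satb1, a chromatin organiser that acts on the Rag locus in thymocytes, with signals of 53.2, 9.3 and 88.6 in knockouts and 943.6, 743.5 and 877.9 in controls (log2 -3.93, limma adjusted p = 0.0468). The list's median was -0.47, beside -0.05 over all genes, and 14 were negative with arrays centred on their medians. The repressor gene Gfi1 had signals of 153.5, 61.4 and 7.1 in knockouts and 821, 818 and 941.8 in controls (log2 -3.70, adjusted p = 0.0906). Gfi1b, reported to repress the Rag genes in B cell progenitors, had 1366.3, 1847.3 and 1527.4 in knockouts and 823.2, 1002.8 and 936.9 in controls (log2 0.76, adjusted p = 0.108). Spi1 was at -0.80 (adjusted p = 0.188). Ikzf1 (-0.20), Tcf3 (0.28) and Foxo1 (-0.29) overlapped between groups.

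The early lymphoid list, which shares Satb1 with the regulators, had 10 of 11 genes measured. Of these 4 fell (0.638% of all genes did), 0 rose and 6 did not pass, and the median log2 difference was -1.80. Il7r, the interleukin-7 receptor gene, had 22.6, 0.4 and 0.5 in knockouts, against 311.3, 406.9 and 209.3 in controls (log2 -3.85, limma adjusted p = 0.0314). Lax1 (log2 -1.95, adjusted p = 0.0199) and the homing receptor gene Ccr7 (log2 -1.72, adjusted p = 0.0405) fell too. The surrogate light chain and antigen receptor signalling genes had a median of -0.48 over 9 measured, and 0 passed. Among them Vpreb1 had 147, 28.4 and 24.8 in knockouts and 93.5, 248.9 and 239.5 in controls, which overlap, Cd79a was at -1.46, Vpreb3 at -0.48 and Igll1 at -0.84. Of the 85 genes measured in the recombination, repair, regulator and lymphoid lists, 4 passed in all, where 0.989% of all genes did. None of the 85 passed when any 1 array was left out.

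**Figure D4:**
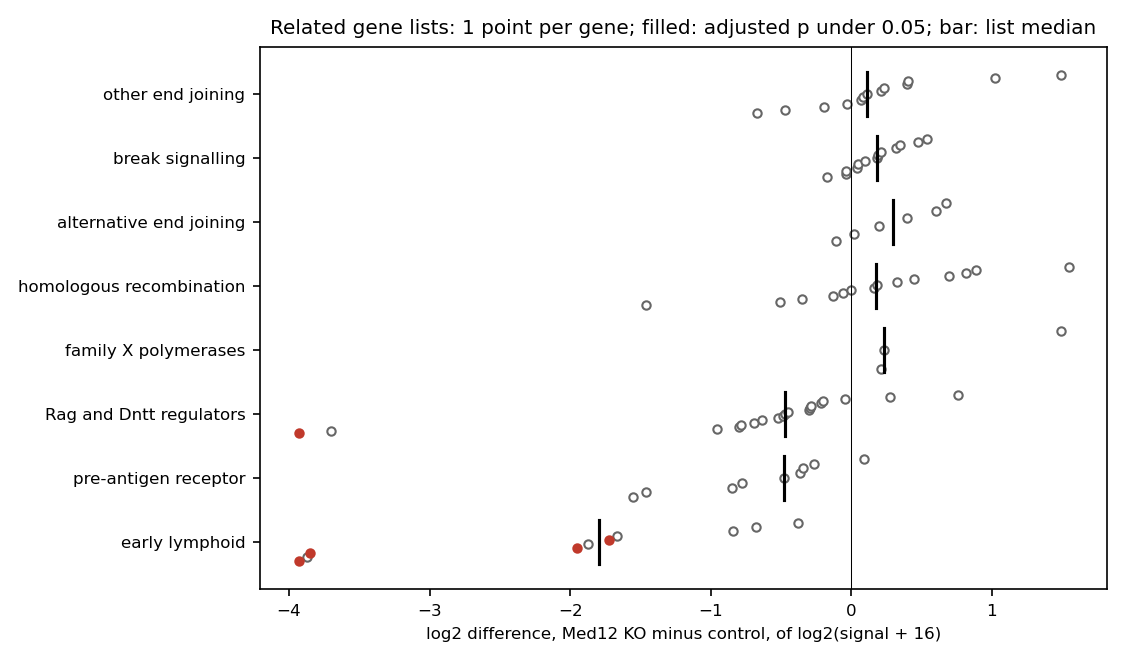
The x axis is the log2 difference, Med12 KO minus control, with 1 point per gene and a bar at each list's median. The repair lists have medians of 0.11 to 0.29, the regulators and receptor genes -0.47 and -0.48, and the early lymphoid genes -1.80; the filled points are Satb1 (on 2 lists), Il7r, Lax1 and Ccr7.

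Markers of other cell types were summed on each array, beginning with those that carry Dntt or Rag transcripts. The 7 measured markers of pro-B and pre-B cells, of 9 listed, had a summed signal of 149 to 431 in knockouts and 409 to 905 in controls. Of the 7, 0 passed limma's test, where 0.989% of all genes did. Most of the sum was Vpreb1 (means of 66.7 in knockouts and 194 in controls) and Cd79b (172 and 267). Pax5 had 0.9 to 2.1 in knockouts and 2.1 to 27.7 in controls, and Ebf1 had 6.8 to 17.8 in knockouts and 21.5 to 29.5 in controls. The 8 measured T cell markers, of 9 listed, summed to 67.8 to 92.7 in knockouts and 137 to 149 in controls, and 4 of them had mean signals under 16 in both groups. The 8 B cell markers summed to 151 to 437 in knockouts and 544 to 858 in controls. Most of the B cell sum was Cd72 (means of 72.5 in knockouts and 339 in controls) and Cd79b (172 and 267). Ms4a1 was not lower, with means of 5.37 in knockouts and 5.13 in controls. The 4 NK cell markers summed to 1037 to 1415 in knockouts and 1103 to 1375 in controls. Most of the NK sum was Nkg7, a granule gene, with means of 1120 in knockouts and 984 in controls. Klrd1, an NK receptor subunit gene, had 2.5 to 22.2 in knockouts, below its 59.6 to 115.9 in controls (log2 -1.85, limma adjusted p = 0.0864). Gzma, the granzyme A gene, had 7.3 to 45.3 in knockouts, below its 87.4 to 164.4 in controls (log2 -1.69, adjusted p = 0.152). Knockout signals lay entirely below control signals for 3 of the 7 pro-B and pre-B markers and 2 of the 8 T cell markers. They did so for 2 of the 8 B cell markers and 2 of the 4 NK cell markers, and lay entirely above for 0 in these lists. The lists share genes, so these counts are not separate. Cd79a, Cd79b and Pax5 are on both the B cell list and the pro-B and pre-B list, and Cd79a counts as lower in both. Vpreb1 and Cd3e are also on the receptor list above, and Ccr9, named below, is also on the early lymphoid list. Over the whole array 13.3% of probe sets lay entirely lower and 7.61% entirely higher in knockouts. Markers of plasmacytoid dendritic cells, some of which carry Dntt and Rag transcripts, summed to 461 to 721 in knockouts and 1190 to 1432 in controls over 6 genes. Most of that sum was Tcf4, with means of 399 in knockouts and 890 in controls. Of the 6 genes, 5 had knockout signals entirely below the control signals, against 13.3% of all probe sets. In limma's test 1 of the 6 fell, Cox6a2 (log2 -1.96, limma adjusted p = 0.0303), where 0.638% of all genes did. The other 4 genes lying entirely lower did not pass: Ccr9 was at -1.66, Tcf4 at -1.14, Spib at -0.57 and Siglech at -0.94. Siglech, a surface receptor gene of these cells, had 3 to 9 in knockouts and 9.3 to 64.1 in controls. The sixth, the interferon regulatory factor gene Irf7, went the other way, with 94.8 to 135 in knockouts above 51.3 to 87.5 in controls (log2 0.66, adjusted p = 0.217). No marker had a signal of exactly 0 on any array, and the part of these cells in the Dntt and Rag2 differences was not tested.

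**Figure D5:**
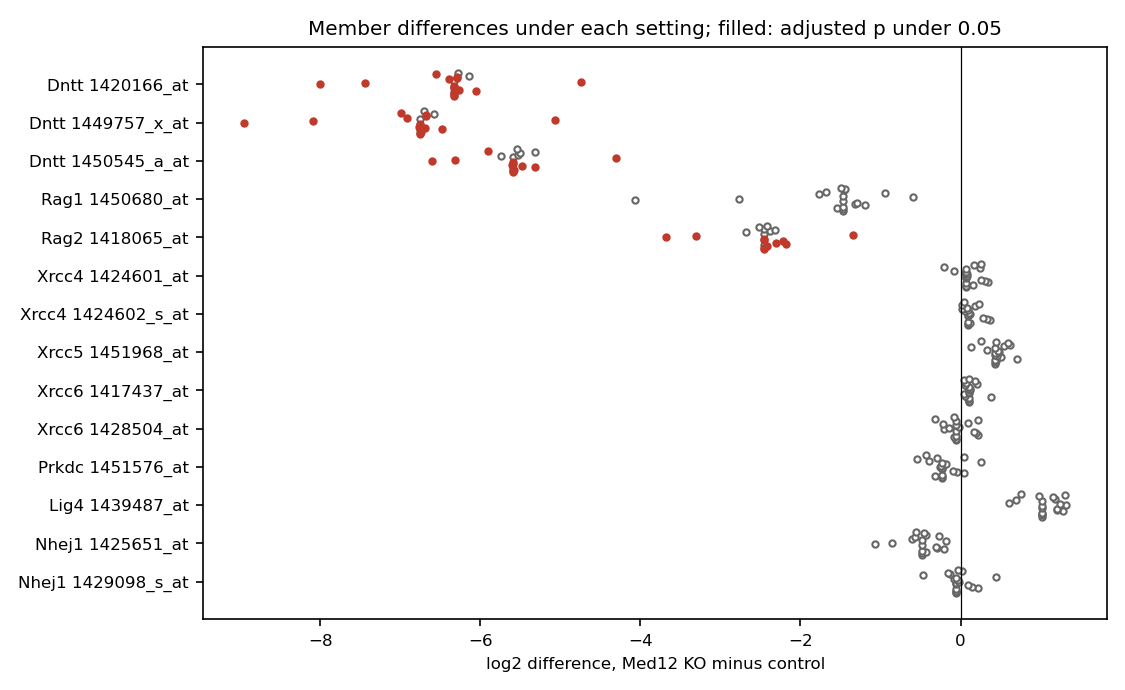
The x axis is the log2 difference, Med12 KO minus control, and each row shows 1 probe set under the reported fit and its alternatives, filled where the adjusted p was under 0.05. Dntt, Rag1 and Rag2 stayed below 0 in all of them that kept the probe set, and the 9 end-joining probe sets passed in none.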

How the data were processed

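Each value is 1 linear signal intensity per probe set and array, as the authors deposited it. RMA is the only tool in the submitters' processing notes, with no version. The deposited intensities, however, run from 0 to 11134, with a mean of 150 on every array once 2% at each end is left out, whereas RMA yields log2 values above 0. How they were made, and how low values were set, is therefore not known here. Per the labels' protocols, 5 ng of total RNA was amplified and biotin-labelled. The number of arrays limits the precision.

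Of 45101 probe sets, 64 controls were left out. The values log2(signal + 16) were fitted in R 4.3.3 with limma 3.58.1 (lmFit, then eBayes, a two-sided moderated test with 4 residual and 1.96 prior degrees of freedom). Benjamini-Hochberg adjustment ran over all 45037 at a threshold of 0.05. The platform annotation gave 34945 probe sets 1 symbol. For a list gene, the probe set with the highest mean log2 value was used, and 127 of 142 list entries matched. From each related list, genes that passed and up to 4 by unadjusted p are named, with Paxx, Atm, Ikzf1, Tcf3 and Foxo1 added for their role. Marker genes were named outside that rule, after their values were seen. Members and lists were chosen with earlier results of these data known. The steps were tested on simulated data. No value column was left out (0). Alternatives covered the variance prior, array weights, normalization, filters, the added number, a plain test and leaving out arrays.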

Additional observations from a re-analysis of the deposited data

How the results depend on the processing

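The 4 member calls (3 probe sets of Dntt and that of Rag2) held in 10 of the 12 alternatives that used all 6 arrays. The exceptions were the plain equal-variance test and the fit with the replicate number as a block, with 0 calls each among the members and 0 among the related genes. Over the whole array the plain test called 1 probe set (5685 at an unadjusted p under 0.05) and the block fit called 0 (6752 at an unadjusted p under 0.05). Same-numbered arrays were not treated as paired in the reported fit. Their deviations from the group means correlated at 0.019, 0.019 and 0.0019 over all probe sets, which does not decide whether they were prepared together. Leaving out 1 array gave 0 to 10 calls over the whole array, 0 to 3 among the members and 0 among the related genes, with 5340 to 7141 probe sets under 0.05 by limma's unadjusted p.

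Against 343 probe sets and 4 related genes in the reported fit, median centring called 693 and 10, leaving out the dimmest 25% called 715 and 10, leaving out the dimmer 50% called 756 and 7, and adding 1 in place of 16 called 42 and 1. A trended, robust prior called 8 related genes, the mean over all probe sets of a gene called 10, and a threshold of 0.10 passed 1159 probe sets. Leaving out dim probe sets changed both the number of tests and the estimated spread (SE of Dntt 1420166_at 0.268 without the dimmest 25%, against 0.233). The cause was not tested for any setting.

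Signs turned only for 4 end-joining probe sets, none of which passed in any setting. After median centring, quantile and cyclic loess normalization, Xrcc6 1428504_at was at 0.21, 0.19 and 0.16 and Nhej1 1429098_s_at at 0.22, 0.14 and 0.10. Prkdc was at 0.046 after median centring. With 1 array left out, Xrcc4 1424601_at ranged from -0.20 to 0.25, Xrcc6 1428504_at from -0.32 to 0.22, Prkdc from -0.55 to 0.26 and Nhej1 1429098_s_at from -0.47 to 0.44. Dim signal limits Rag1, the Nhej1 set 1425651_at and the Xrcc6 set 1428504_at. All of these were removed with the dimmer 50% of probe sets, so that setting did not test them.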
